A study of Mus musculus with 4 samples.

Results

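Macrophages and the products of their alternative activation were followed in the colon through 10 genes chosen by name, *Arg1*, *Chil3*, *Retnla*, *Mrc1*, *Cd163*, *Msr1*, *Cd14*, *Csf1r*, *Cd68* and *Adgre1*. They were read by 15 of the 39423 probes of a one-color mouse expression array, as 10 of its 22384 named genes, and each of them had at least 1 probe. The 4 arrays held pooled colon RNA of male mice aged 42 weeks on a mixed B6.129 (n3) background, labelled *Pla2g3*+/+ or *Pla2g3*-/-. *Pla2g3* encodes sPLA2-III, a secreted phospholipase. Mice had received azoxymethane (AOM), a procarcinogen that gives rise to colon tumors, or saline as vehicle. AOM was injected into the peritoneum at 10 mg/kg weekly for 6 weeks, and colons were taken 28 weeks after the last dose. Each of the 4 groups, *Pla2g3*+/+ with vehicle, *Pla2g3*-/- with vehicle, *Pla2g3*+/+ after AOM and *Pla2g3*-/- after AOM, was 1 array of RNA from 3 to 5 mice by the submitters' description, in which the AOM samples are named cancer tissue. The mice were littermates from crosses of heterozygotes, and the study names the whole descending colon as the tissue of the arrays.

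Tissue macrophages arise from embryonic precursors and from blood monocytes, and those of the gut depend on signaling through the CSF1 receptor and are steadily renewed from monocytes. Under IL-4 and IL-13, acting through STAT6, mouse macrophages take on an alternatively activated state marked by arginase 1, the chitinase-like protein Ym1 (*Chil3*), the resistin-like molecule RELMα (*Retnla*) and the mannose receptor (*Mrc1*). Classical activation by microbial products and interferon-γ gives instead nitric oxide synthase 2 and cytokines such as TNF and IL-1β. In tumors, genes of both states are found together. Several of these genes are also made by other cells: Ym1 by neutrophils, RELMα by adipose and epithelial tissue and CD14 by epithelium.

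The targeted gene was read first. The brightest of the 3 *Pla2g3* probes (mm9 chr11:3394109-3394168) gave 0.531 and 0.656 times the 75th percentile of the array for the vehicle arrays labelled *Pla2g3*+/+ and *Pla2g3*-/-, and 0.232 and 1.40 after AOM. All 3 probes were higher, by 2.76- to 6.66-fold, on the AOM array labelled *Pla2g3*-/- than on that labelled *Pla2g3*+/+. This would go against the labels only for a probe within the removed exons. Which exons the knockout removes was not given in the sources used here, and a probe outside them checks nothing, so every direction below follows the labels and an array is named by its label. With 1 array per group there is no replicate check and no p-value for any ratio between arrays. The 4 arrays lay on 1 slide, so that group and array position cannot be told apart. On each array 64.8% to 69.4% of 43020 spots were well above background and none was saturated. The vehicle array labelled *Pla2g3*-/- carried pancreatic acinar transcripts, with a summed scaled signal of 42.3 for 9 acinar genes against 0.191 to 0.643 on the other arrays. The comparisons between the AOM arrays and within *Pla2g3*+/+ do not use that array.

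The levels below are scaled signals, in which the background-subtracted intensity of a spot is set over the array's 75th percentile, and a ratio compares the same probe on 2 arrays, since signals of different probes do not rank genes by abundance. Where a gene had several probes, the brightest stands for it and the others are given beside it. The error printed with a log2 ratio is that of the scanner software's error model, about 10% per spot, and covers neither mice nor pools. In pooled whole tissue, fewer cells of a type and less RNA per cell cannot be told apart. A probe that was not well above background on an array has only an upper limit there. The mm9 positions of probes come from the deposited array files and were not set against exons because no annotation of that build was used here.

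The macrophage genes stood highest on the AOM array labelled *Pla2g3*+/+ for 7 of the 9 that had a ratio, *Arg1*, *Chil3*, *Msr1*, *Cd14*, *Csf1r*, *Cd68* and *Adgre1*. *Mrc1* and *Retnla* stood highest on the AOM array labelled *Pla2g3*-/-. *Cd163* was not well above background on any array. The general macrophage markers were thus present on all 4 arrays. *Cd163*, a marker of tissue-resident cells, is read by a single probe. *Mrc1* and *Folr2*, also genes of resident macrophages, were well above background on all 4 arrays. *Siglec1* and *Timd4*, other markers of tissue macrophages, were so on the AOM arrays only.

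**Figure D1:**
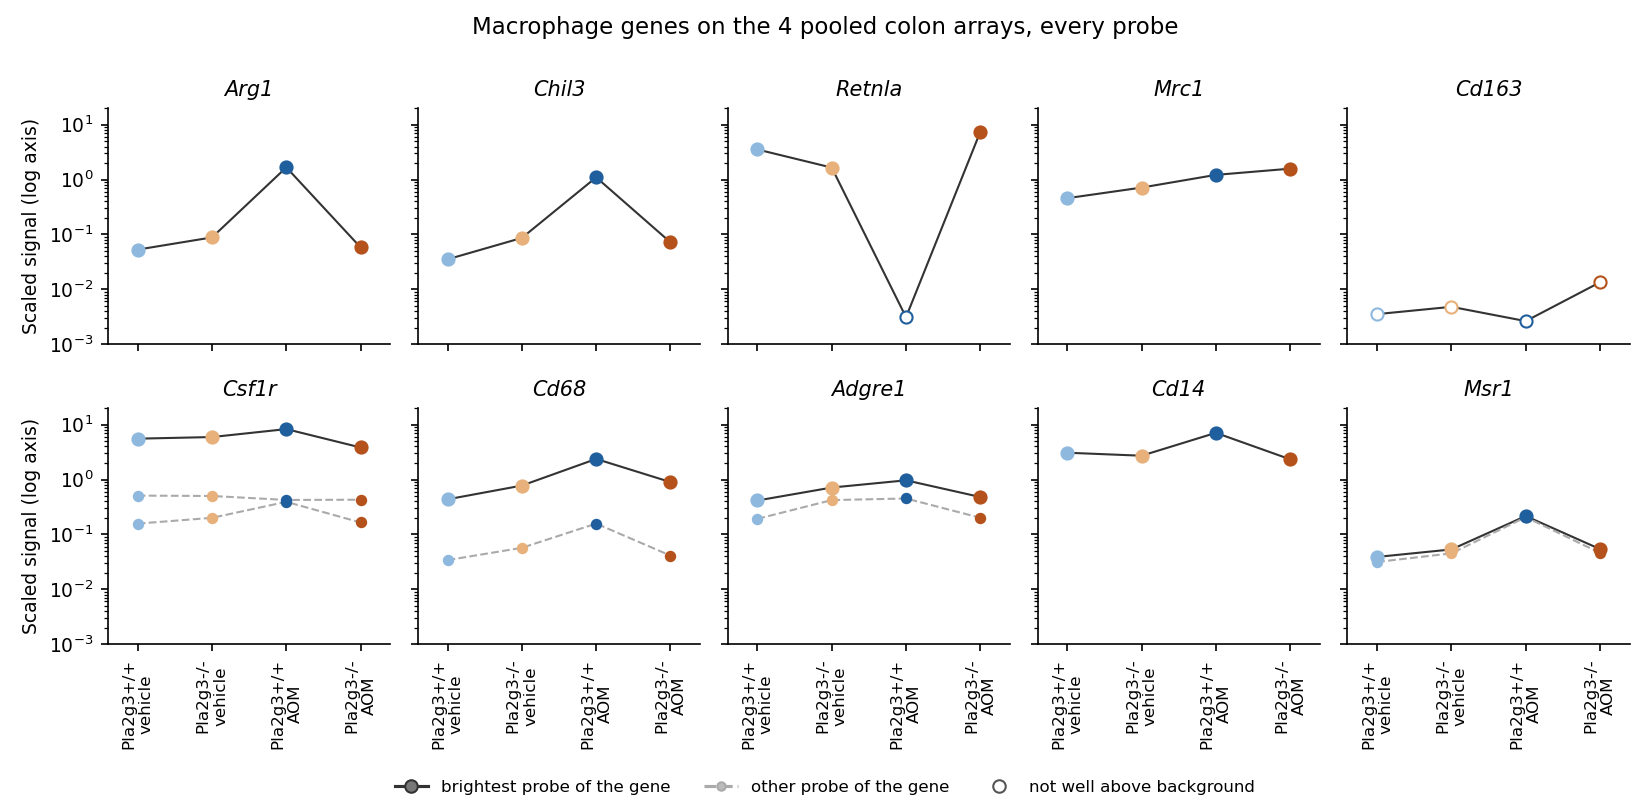
Scaled signal (spot intensity over the 75th percentile of its array, log axis) of every probe of the 10 genes on the 4 arrays. Lines join the values of 1 probe, large points and dark lines are the brightest probe, and open points were not well above background. *Arg1* peaks at 1.67 and *Chil3* at 1.099 on the *Pla2g3*+/+ AOM array, where *Retnla* is lowest at 0.00310.

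Following AOM, a drop of over 2-fold on the array labelled *Pla2g3*-/- relative to that labelled *Pla2g3*+/+ was seen for 7 of the 9 genes, against 12.9% of all 17190 genes with a ratio, and 1 was over 2-fold higher, against 15.1%. Their median log2 ratio was −1.40, against 0.03 over all genes. Within *Pla2g3*+/+, 7 of 9 were over 2-fold higher after AOM than with vehicle, against 15.1% of all genes, and 1 was lower, against 22.4%. The median was 1.41 beside −0.17 for all genes. Within *Pla2g3*-/-, 2 of 9 were over 2-fold higher after AOM, against 9.65% of all genes, and 0 were lower, against 15.1%. With vehicle, 1 of 9 was higher in *Pla2g3*-/-, against 1.93%, and 1 was lower, against 1.32%, and 7 of 9 had a log2 ratio above 0 with a median of 0.64, beside −0.02 over all genes. These comparisons share arrays in pairs and are not independent of each other. The AOM to vehicle ratios also rest on the scaling, because the AOM arrays were brighter throughout. Unscaled, each log2 ratio of AOM to vehicle was higher than the scaled one by 1.02 in *Pla2g3*+/+ and by 0.85 in *Pla2g3*-/-. Then 7752 genes were over 2-fold higher and 1232 lower in *Pla2g3*+/+, in place of 2616 and 3872. In *Pla2g3*-/- they were 6399 and 626, in place of 1593 and 2496. Quantile normalization raised these ratios by a median of 0.22 over all probes in *Pla2g3*+/+.

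**Figure D2:**
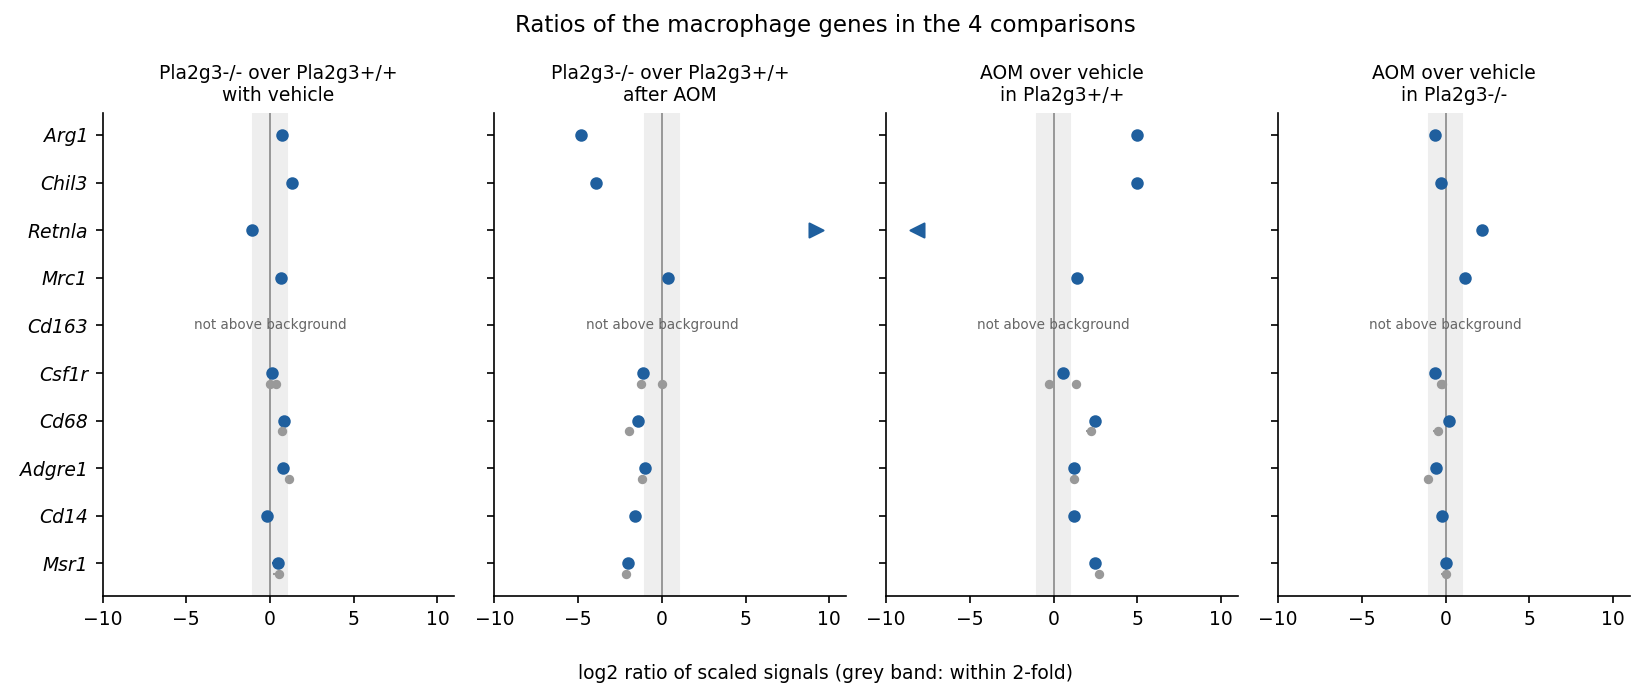
Log2 ratios of the 10 genes in the 4 comparisons, with 1 panel for each. Blue points are the brightest probe, grey points the other probes, bars the error of the scanner software's model, arrowheads limits where 1 array was not well above background, and the grey band marks changes within 2-fold. *Arg1* lies at −4.85 and *Chil3* at −3.94 in the panel of genotypes after AOM and both lie near 5 in that of AOM in *Pla2g3*+/+, while *Retnla* lies on the opposite sides.

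*Arg1* encodes arginase 1, which breaks down arginine to ornithine and urea and so draws on the substrate of nitric oxide synthase. Its probe (mm9 chr10:24636194-24636253) gave scaled signals of 0.0530 with vehicle in *Pla2g3*+/+, 0.0883 with vehicle in *Pla2g3*-/-, 1.67 after AOM in *Pla2g3*+/+ and 0.0580 after AOM in *Pla2g3*-/-. The *Pla2g3*+/+ AOM array stood apart from the other 3, which were close to the lower end of what the array measures. AOM over vehicle was 31.5-fold in *Pla2g3*+/+ (log2 ratio 4.98 ± 0.22). In *Pla2g3*-/- the log2 ratio was −0.61 ± 0.23. After AOM the array labelled *Pla2g3*-/- was 28.8-fold lower than that labelled *Pla2g3*+/+ (log2 ratio −4.85 ± 0.22), whereas with vehicle it was 1.67-fold higher. With another background correction and quantile normalization, AOM over vehicle in *Pla2g3*+/+ was at a log2 ratio of 3.54. The ratio of *Pla2g3*-/- to *Pla2g3*+/+ after AOM was then −3.49.

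*Chil3* encodes Ym1, a chitinase-like protein without chitinase activity that is secreted by alternatively activated macrophages and stored by neutrophils. Its probe (mm9 chr3:105950485-105950544) gave 0.0352 and 0.0865 with vehicle in *Pla2g3*+/+ and *Pla2g3*-/-, and 1.099 and 0.0718 after AOM. As for *Arg1*, only the *Pla2g3*+/+ AOM array was bright. The rise with AOM in *Pla2g3*+/+ was 31.2-fold (log2 ratio 4.96 ± 0.28), and after AOM the *Pla2g3*-/- array was 15.3-fold lower (−3.94 ± 0.22). With vehicle the order was the other way, 2.45-fold higher in *Pla2g3*-/- (1.30 ± 0.30), which made it the 1 gene of the group past 2-fold upwards there. That vehicle ratio was 0.51 with the other background correction and quantile normalization, short of 2-fold. In the same setting the rise with AOM in *Pla2g3*+/+ was 2.99 and the ratio of genotypes after AOM −2.54. *Chil3* has a near-identical neighbor, *Chil4*, whose own probe was well above background only on the *Pla2g3*+/+ AOM array, at a spot intensity of 21.2. Whether the *Chil3* probe also reads *Chil4* was not tested.

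*Retnla* encodes RELMα, a secreted cysteine-rich protein that is induced by IL-4 and IL-13 and tempers type 2 inflammation. Its pattern was opposite to that of *Arg1* and *Chil3*. Its probe (mm9 chr16:48844447-48844506) gave 3.54 and 1.65 with vehicle in *Pla2g3*+/+ and *Pla2g3*-/-, 0.00310 after AOM in *Pla2g3*+/+, which was not well above background, and 7.44 after AOM in *Pla2g3*-/-. The 3 other arrays were all well above background, and their order was *Pla2g3*-/- after AOM, *Pla2g3*+/+ with vehicle and *Pla2g3*-/- with vehicle. Taking the lowest signal well above background on the *Pla2g3*+/+ AOM array as the limit there, *Retnla* was at least 592-fold higher in *Pla2g3*-/- than in *Pla2g3*+/+ after AOM. In *Pla2g3*+/+ it was at least 281-fold lower after AOM than with vehicle. These limits, log2 ratios of 9.21 and −8.14, depend on the background correction. With the other background correction and quantile normalization they were 6.02 and −4.72. In *Pla2g3*-/-, *Retnla* was 4.50-fold higher after AOM (log2 ratio 2.17 ± 0.20). With vehicle it was 2.14-fold lower in *Pla2g3*-/- (−1.10 ± 0.20), and −0.94, within 2-fold, with the other background correction and quantile normalization. A single probe reads *Retnla*, so no second probe checks the missing signal.

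The starts of the genes differ in the motifs they carry. RefSeq promoters of build GRCm38.p6 were at hand for 5 of the 10 genes, *Retnla*, *Chil3*, *Mrc1*, *Cd68* and *Cd163*, and the 250 bases before the start were searched on both strands for TTCNNNNGAA, the spacing of bases that STAT6 prefers, for GAGGAA, an Ets core bound by the macrophage factor PU.1, and for the TATA box TATAAA. *Arg1*, *Msr1*, *Cd14*, *Csf1r* and *Adgre1* were not searched. Of 27025 promoters, 5.86% held the first, 23.1% the second and 12.97% the third. Promoters are shown for 3 genes that moved in different ways after AOM: *Retnla*, which went down in *Pla2g3*+/+ and up in *Pla2g3*-/-, *Chil3*, which went up in *Pla2g3*+/+ only, and *Mrc1*, which went up in both. Capitals mark motif matches. Retnla is chr16:48842359-48842608 and Mrc1 chr2:14229164-14229413, both on the plus strand, and Chil3 is chr3:106167565-106167814 on the minus strand, each written 5′ to 3′.
Retnla: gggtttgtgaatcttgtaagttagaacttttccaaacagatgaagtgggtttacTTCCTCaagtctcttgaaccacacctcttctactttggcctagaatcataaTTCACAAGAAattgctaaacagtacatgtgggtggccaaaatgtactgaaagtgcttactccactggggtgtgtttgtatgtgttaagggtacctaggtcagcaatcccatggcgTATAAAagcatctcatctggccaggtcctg
Chil3: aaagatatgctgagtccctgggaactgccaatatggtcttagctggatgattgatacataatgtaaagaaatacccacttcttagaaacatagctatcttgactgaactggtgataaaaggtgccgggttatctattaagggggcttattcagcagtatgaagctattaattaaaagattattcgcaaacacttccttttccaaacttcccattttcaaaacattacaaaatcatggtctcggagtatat
Mrc1: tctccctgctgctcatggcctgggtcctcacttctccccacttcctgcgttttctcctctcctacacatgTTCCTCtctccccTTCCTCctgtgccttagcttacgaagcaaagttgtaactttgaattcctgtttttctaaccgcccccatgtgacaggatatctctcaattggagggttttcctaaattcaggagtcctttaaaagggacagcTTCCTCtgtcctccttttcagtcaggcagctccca
*Retnla* held 1 match to the STAT6 spacing, whose first base lies at −145 from the start, 1 Ets core on the minus strand at −196 and a TATA box at −30. *Mrc1* held 3 Ets cores on the minus strand, at −180, −167 and −35. *Chil3* and *Cd163* held none of the 3 motifs in this window and *Cd68* held 1 Ets core, at −225. A match is only a match of letters and no binding was measured here.

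*Mrc1* encodes the mannose receptor CD206, an endocytic receptor for glycans that is raised in alternative activation and in resident macrophages. Its probe (mm9 chr2:14253273-14253332) gave 0.458 and 0.715 with vehicle in *Pla2g3*+/+ and *Pla2g3*-/-, and 1.22 and 1.58 after AOM. The AOM arrays of both genotypes lay above both vehicle arrays, which at the brightest probe also held for *Cd68* and, by a margin within the spot error, for *Msr1*. AOM over vehicle was 2.66-fold in *Pla2g3*+/+ (log2 ratio 1.41 ± 0.20) and 2.21-fold in *Pla2g3*-/- (1.14 ± 0.20). The ratio of *Pla2g3*-/- to *Pla2g3*+/+ was 1.56-fold with vehicle and 1.30-fold after AOM. *Cd163*, the hemoglobin scavenger receptor of resident macrophages, had spot intensities of 2.28, 3.12, 3.45 and 15.7 on the 4 arrays in the same order, none well above background, and is given no ratio.

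*Msr1* encodes scavenger receptor A, which takes up modified lipoproteins and bacterial products. Its brightest probe (mm9 chr8:40689158-40689217) gave 0.0388 and 0.0532 with vehicle in *Pla2g3*+/+ and *Pla2g3*-/-, and 0.216 and 0.0539 after AOM. The *Pla2g3*+/+ AOM array was again the high one. It was 5.56-fold above its vehicle array (log2 ratio 2.47 ± 0.27) and 4.0-fold above the *Pla2g3*-/- AOM array. Both *Pla2g3*-/- arrays differed by less than the spot error (0.02 ± 0.29). The other probe, in the same gene, gave 6.56-fold and 4.49-fold for the first and the second of these ratios. With normexp background correction and quantile normalization, the log2 ratio of *Pla2g3*-/- to *Pla2g3*+/+ after AOM was −0.92 in place of −2.0.

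*Cd14* encodes the LPS co-receptor of monocytes and macrophages, which hands lipopolysaccharide to TLR4 and MD-2 (*Ly96*). Its probe (mm9 chr18:36884969-36885028) gave 3.08 and 2.71 with vehicle in *Pla2g3*+/+ and *Pla2g3*-/-, and 7.09 and 2.33 after AOM. The 2 vehicle arrays differed by less than the spot error (log2 ratio −0.18 ± 0.20). AOM over vehicle was 2.30-fold in *Pla2g3*+/+ (1.20 ± 0.20), and after AOM the *Pla2g3*-/- array was 3.04-fold lower (−1.60 ± 0.20). *Tlr4*, *Ly96* and *Myd88* stayed within 2-fold in all 4 comparisons. Of 8 LPS receptor partners with a ratio after AOM, 0 were over 2-fold lower in *Pla2g3*-/- and 1, *Ticam1*, was higher. The shares over all genes were 12.9% lower and 15.1% higher, so counts this small do not set the partners apart.

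*Csf1r* encodes the receptor for CSF1 and IL-34, on which most tissue macrophages depend. Its brightest probe (mm9 chr18:61290725-61290784) gave 5.55 and 5.94 with vehicle in *Pla2g3*+/+ and *Pla2g3*-/-, and 8.30 and 3.83 after AOM. The *Pla2g3*+/+ AOM array was highest and the *Pla2g3*-/- AOM array lowest, and the span was the smallest among the 9 genes with a ratio. After AOM the *Pla2g3*-/- array was 2.16-fold lower (log2 ratio −1.11 ± 0.20), and AOM over vehicle in *Pla2g3*+/+ was 1.49-fold. The 3 probes disagreed. A dimmer probe (mm9 chr18:61289398-61289758) gave 2.38-fold lower after AOM and 2.50-fold for AOM over vehicle in *Pla2g3*+/+, whereas the probe at mm9 chr18:61278661-61278720 gave log2 ratios of 0.01 and −0.26 for the same comparisons. Averaged over the 3 probes, *Csf1r* was at −0.78 in *Pla2g3*-/- over *Pla2g3*+/+ after AOM, within 2-fold.

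*Cd68* encodes macrosialin, a lysosomal glycoprotein abundant in macrophages. Its brightest probe (mm9 chr11:69477775-69477834) gave 0.436 and 0.775 with vehicle in *Pla2g3*+/+ and *Pla2g3*-/-, and 2.37 and 0.898 after AOM. The *Pla2g3*+/+ AOM array was high and the *Pla2g3*+/+ vehicle array low, with both *Pla2g3*-/- arrays between them (log2 ratio of AOM to vehicle 0.21 ± 0.20). AOM over vehicle was 5.44-fold in *Pla2g3*+/+ (2.44 ± 0.20), and after AOM the *Pla2g3*-/- array was 2.64-fold lower (−1.40 ± 0.20). The second probe gave 4.62-fold and 3.83-fold for these.

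*Adgre1* encodes F4/80, the adhesion G protein-coupled receptor used to stain mouse macrophages. Its brightest probe (mm9 chr17:57622868-57622927) gave 0.414 and 0.714 with vehicle in *Pla2g3*+/+ and *Pla2g3*-/-, and 0.967 and 0.480 after AOM. The *Pla2g3*+/+ AOM array was highest and the *Pla2g3*+/+ vehicle array lowest. AOM over vehicle was 2.33-fold in *Pla2g3*+/+ (log2 ratio 1.22 ± 0.20). After AOM the *Pla2g3*-/- array was 2.02-fold lower, just past the threshold, and it was within 2-fold under scaling by the median (−0.97) and under normexp and quantile normalization (−0.84). The second probe gave 2.25-fold lower after AOM and, with vehicle, 2.20-fold higher in *Pla2g3*-/-, where the brightest probe gave 1.72-fold.

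The response to AOM thus differed in size between the genotypes for most of these genes, as a description of 4 arrays and without a test. The log2 ratio of AOM to vehicle in *Pla2g3*-/- minus that in *Pla2g3*+/+ was −5.58 for *Arg1*, −5.23 for *Chil3*, −2.46 for *Msr1*, −2.23 for *Cd68*, −1.80 for *Adgre1*, −1.42 for *Cd14* and −1.21 for *Csf1r*. The other probes of *Csf1r* disagreed, at −1.60 and 0.04. For *Mrc1* this difference was −0.27, against a spot error of about 0.20 for each of the ratios it is made of. For *Retnla* it went the other way, by at least 10.3, a limit that depends on the background correction. The enzyme *Arg1* and the secreted products *Chil3* and *Retnla* thus differed by more than the receptors and the lysosomal marker. Unscaled, the AOM to vehicle ratios of all genes shift up, and the median of the 9 genes in *Pla2g3*-/- turned from −0.22 to 0.63. No over 2-fold ratio of a gene changed direction under any of the alternatives. These did not include the *Csf1r* probe at mm9 chr18:61278661-61278720 on its own. It gave 0.01 for *Pla2g3*-/- over *Pla2g3*+/+ after AOM.

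An additive model with treatment and genotype terms left 1 residual degree of freedom, and it treats a genotype difference in the AOM response as noise. limma called 0 of 17876 genes for treatment at an adjusted p of 0.05, with 2403 at an unadjusted p under 0.05, and 0 for genotype, with 215. *Mrc1* had a treatment effect of 1.28 ± 0.31 (SE) on the log2 scale, with an unadjusted p of 0.0307 and an adjusted p of 0.369 in limma. The other 8 genes had adjusted p-values of 0.434 to 0.978 for treatment, with limma taking the signal of *Retnla* on the *Pla2g3*+/+ AOM array as it stands.

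Genes around the macrophage were read from lists and are given for AOM in *Pla2g3*-/- over *Pla2g3*+/+, where the shares over all genes were 12.9% lower and 15.1% higher. Of 11 growth factors and recruitment signals of macrophages, 8 were over 2-fold lower and 0 higher. *Ccl2*, the chemokine that draws monocytes, had scaled signals of 0.190, 0.274, 1.80 and 0.304 in the order *Pla2g3*+/+ and *Pla2g3*-/- with vehicle and *Pla2g3*+/+ and *Pla2g3*-/- after AOM, and was 5.93-fold lower. *Csf1*, the ligand of *Csf1r*, was 2.25-fold lower and *Csf2rb*, the shared receptor chain for GM-CSF, IL-3 and IL-5, 6.22-fold lower. *Csf2*, which encodes GM-CSF, was well above background only on the *Pla2g3*+/+ AOM array and at least 9.84-fold lower in *Pla2g3*-/-. These 4 genes peaked on the same array as *Arg1* and *Cd68*, whereas the chemokine *Cx3cl1* was highest on the *Pla2g3*-/- AOM array (5.92 and 4.49 with vehicle, 3.66 and 6.60 after AOM).

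Of 12 classical activation genes with a ratio, 10 were over 2-fold lower after AOM in *Pla2g3*-/- and 1, *Cd38*, was higher. Within *Pla2g3*+/+, 8 were over 2-fold higher after AOM than with vehicle, against 15.1% of all genes. *Il1b* went from 0.102 with vehicle to 5.67 after AOM in *Pla2g3*+/+ and from 0.0967 to 0.0790 in *Pla2g3*-/-. *Cxcl9* and *Cxcl10*, chemokines induced by interferon-γ, were 171-fold and 30.0-fold lower in *Pla2g3*-/- after AOM. *Il6* was well above background only on the *Pla2g3*+/+ AOM array. The median log2 ratio of this list was −2.80, against −1.03 for 13 other alternative activation genes, of which 7 were lower and 2, *Klf4* and *Socs2*, higher. Among the latter, *Ccl24* was 8.19-fold lower and *Mmp12*, macrophage elastase, at least 19.0-fold lower. *Klf4* was 9.95-fold higher and is also a gene of the colon epithelium.

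Upstream of alternative activation, *Stat6* was at a log2 ratio of −0.01 in both comparisons of genotype, and *Il4* was well above background only on the *Pla2g3*+/+ AOM array and *Il13* only on the *Pla2g3*-/- vehicle array. *Il4ra*, the shared receptor chain, was 4.56-fold lower in *Pla2g3*-/- after AOM and *Il2rg*, the common γ chain, 8.15-fold lower. Of 9 genes of this list with a ratio after AOM, 3 were over 2-fold lower and 0 higher. Around arginase, *Arg2*, the mitochondrial isoenzyme, was 6.32-fold lower in *Pla2g3*-/- after AOM, but unlike *Arg1* it did not peak on the *Pla2g3*+/+ AOM array (0.398 and 0.301 with vehicle, 0.202 and 0.0320 after AOM). *Nos2*, which shares the substrate, was 3.31-fold lower.

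Of 20 other tissue macrophage markers, 17 to 20 were well above background on each array. After AOM 11 were over 2-fold lower and 3 higher in *Pla2g3*-/-. Within *Pla2g3*+/+, 12 were over 2-fold higher after AOM, against 15.1% of all genes, and 3 were lower, against 22.4%. *Trem2* and *Cx3cr1* were 3.54-fold and 5.72-fold lower in *Pla2g3*-/- after AOM, as was the signaling adaptor *Tyrobp*, by 6.53-fold. *Folr2*, a folate receptor of resident macrophages, was 5.36-fold higher, with 0.291 and 0.494 with vehicle and 0.0601 and 0.322 after AOM, so that it was lowest on the array where *Retnla* was lowest. Of 8 other scavenger receptors with a ratio, 4 were lower, *Marco* by 7.08-fold and *Olr1* by at least 6.12-fold, and 1, *Stab2* of sinusoidal endothelium, was 5.44-fold higher.

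**Figure D3:**
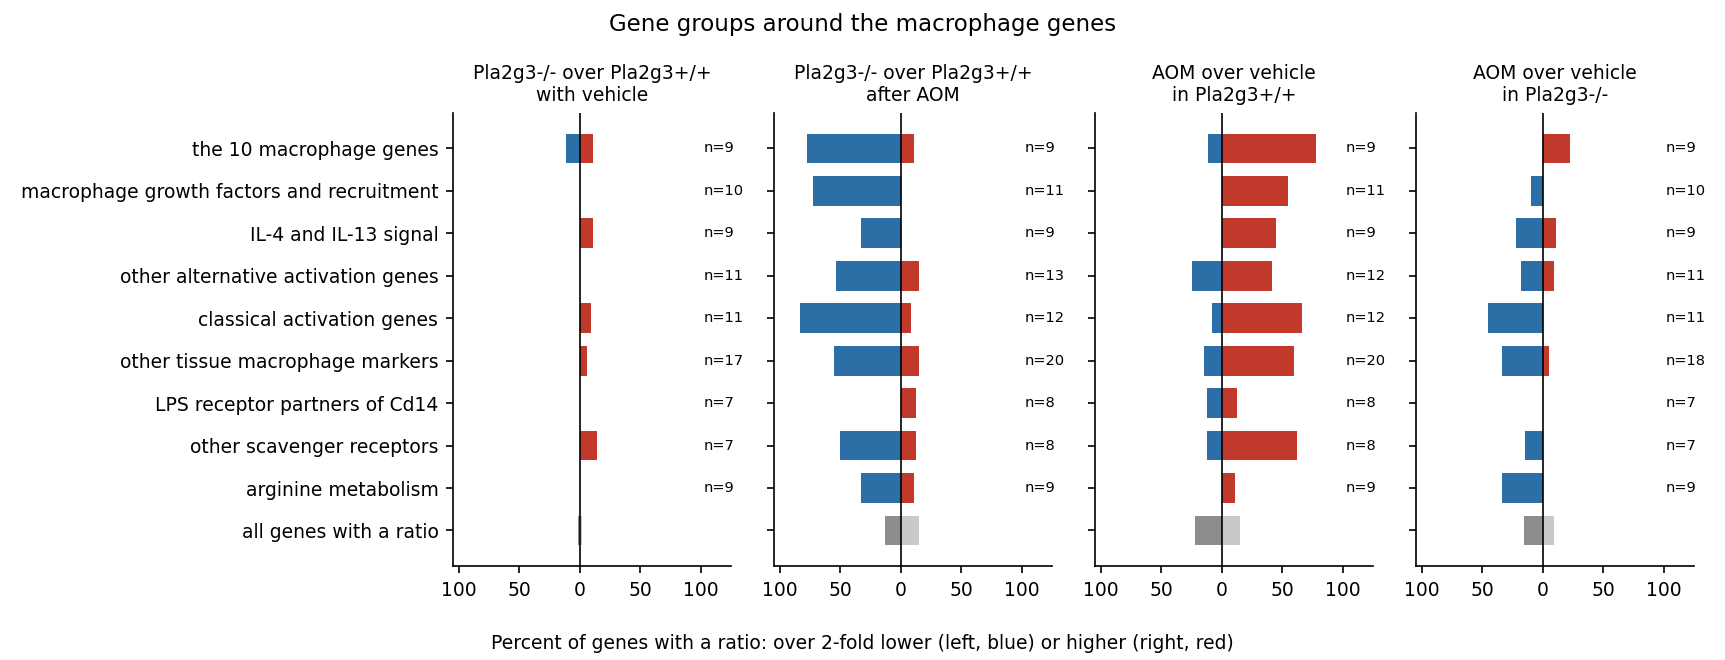
Percent of the genes of each list that were over 2-fold lower (left of 0) or higher (right of 0) in the 4 comparisons, with the number that had a ratio as n and all genes in grey. Of the 12 classical activation genes 10 are lower in *Pla2g3*-/- over *Pla2g3*+/+ after AOM, beside 7 of the 9 macrophage genes and 12.9% of all genes.

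Markers of other cell types moved with the same arrays, and their part in these results was not tested. All 8 smooth muscle genes were over 2-fold higher in *Pla2g3*-/- than in *Pla2g3*+/+ after AOM, against 15.1% of all genes. Their summed scaled signal was 31.0 on the *Pla2g3*+/+ AOM array and 510.1, 535 and 488 on the 3 other arrays. Adipocyte genes summed to 19.7 and 40.5 with vehicle, 2.32 on the *Pla2g3*+/+ AOM array and 7.96 on the *Pla2g3*-/- AOM array, and *Adipoq* was not well above background on the *Pla2g3*+/+ AOM array. Goblet cell genes summed to 1895 and 1849 with vehicle and to 139.0 and 638 after AOM. The array with the lowest muscle, fat and goblet signal was the one on which *Retnla* was not well above background. On the 3 other arrays the order did not match. *Retnla* was at 3.54 and 1.65 with vehicle in *Pla2g3*+/+ and *Pla2g3*-/- and at 7.44 after AOM in *Pla2g3*-/-. Muscle and fat sums ran in the opposite order there, and the goblet sum was lowest where *Retnla* was highest.

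In the other direction, 8 of 8 Wnt target genes of colon tumors were over 2-fold higher after AOM in *Pla2g3*+/+, against 15.1% of all genes. Their sums were 6.81, 6.82, 65.9 and 6.22 in the same order of arrays. Mast cell genes summed to 2.0, 1.72, 27.2 and 1.80. *Mcpt1*, *Mcpt2* and *Mcpt4*, at 8.13, 7.88 and 8.88, made up most of the mast cell sum on the *Pla2g3*+/+ AOM array. *Kit* was lowest on that array (0.474), and *Cma1* was higher on the *Pla2g3*-/- AOM array (0.207 against 0.167). The *Pla2g3*+/+ AOM array was therefore also the one highest in tumor transcripts and in the summed mast cell signal. Neutrophil genes, which bear on *Chil3*, summed to 55.0 and 54.2 with vehicle and to 94.4 and 71.7 after AOM, but *Csf3r* made up most of these sums except that of the *Pla2g3*+/+ AOM array (49.5, 50.02, 44.4 and 53.8). The median log2 ratio of *Pla2g3*-/- to *Pla2g3*+/+ after AOM over the list was −2.53, and *S100a8* was at 0.0512, 0.0602, 10.0 and 0.125. *Ngp*, a defining granule gene of neutrophils, was not well above background on any array. Of 9 neutrophil genes with a ratio, 5 were over 2-fold lower and 2 higher in *Pla2g3*-/- after AOM. In this comparison 12.9% of all genes were lower and 15.1% higher, which also stands beside the lists that follow. Dendritic cell genes had 4 of 6 over 2-fold lower and 1 higher in that comparison, monocyte genes 2 and 2 of 5, where *Chil3* is itself 1 of the 2 lower, and mast cell genes 6 and 0 of 8. Eosinophil, T cell and B and plasma cell lists had 3 of 6, 4 of 6 and 6 of 7 genes over 2-fold lower in that comparison and 0 higher in each. Epithelial genes, 8 of 8 well above background on each array, had 1 higher and 0 lower.

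**Figure D4:**
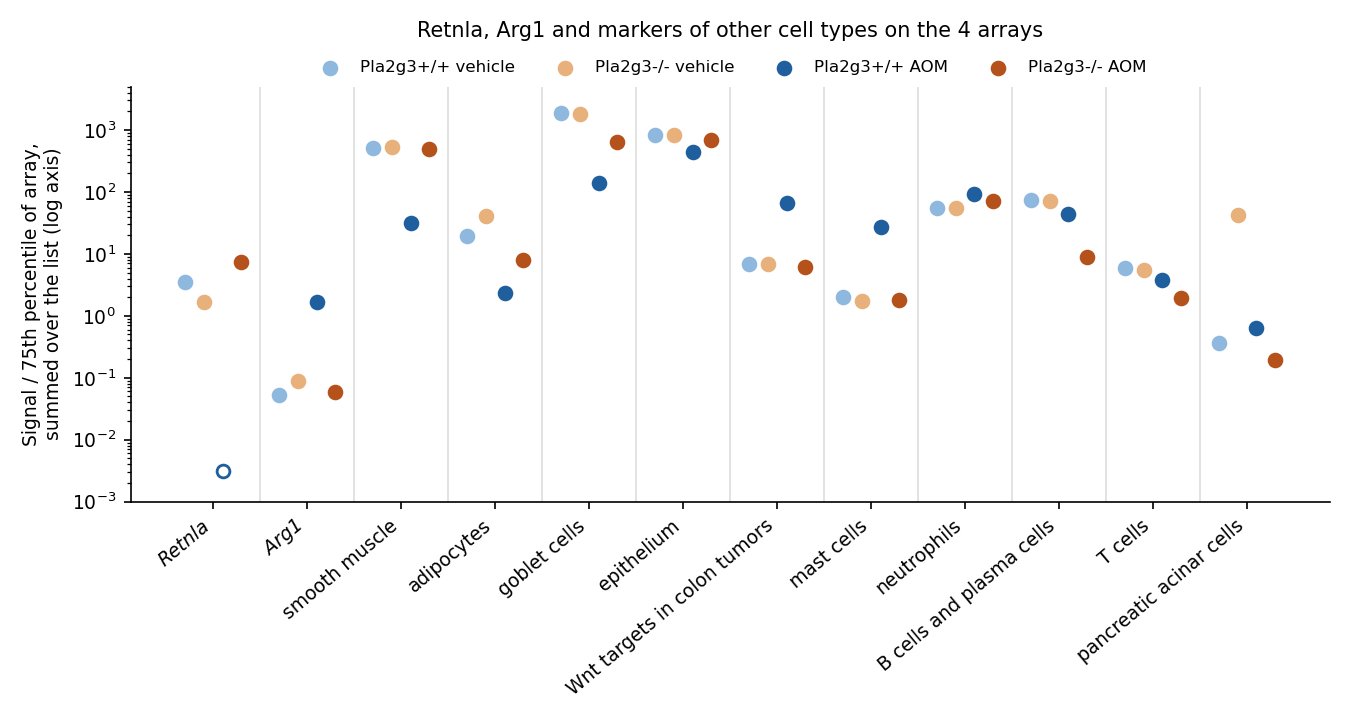
Scaled signal of *Retnla* and *Arg1* and the summed scaled signals of marker lists of other cell types (log axis) on the 4 arrays, which have 1 color each. The open point is *Retnla* not well above background. On the *Pla2g3*+/+ AOM array, smooth muscle is at 31.0, adipocytes at 2.32 and Wnt targets at 65.9.

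The genes also differed in how alike their patterns were. The closest pair over the 4 centred log2 values was *Cd68* and *Msr1*, with a root mean square distance of 0.25, followed by *Csf1r* and *Adgre1* at 0.30, *Csf1r* and *Cd14* at 0.33 and *Arg1* and *Chil3* at 0.39. *Mrc1* was 1.90 from *Arg1*. Of 14780 genes well above background on all arrays, those nearest to *Arg1* were *Pla2g2a*, another secreted phospholipase, at 0.18, *Evx1* at 0.21 and *Sox17* at 0.25, and those nearest to *Chil3* were *Mdfi*, *Cep112* and *Adamts4*, all at 0.24. Nearest to *Msr1* were *Ccn1* at 0.04, *Tbxas1* at 0.05 and the chemokine *Ccl7* at 0.06, nearest to *Cd68* were *Plxnd1*, *Csnk1e* and *Tcaf2* at 0.09 to 0.10, and nearest to *Adgre1* were *Trp53* at 0.06, *Tvp23a* at 0.08 and *Kif20a* at 0.09. *Mrc1* was nearest to *Eya2*, *Sdk1* and *Anpep* at 0.04 to 0.06, *Cd14* to *Bmp8b*, *Dnaja4* and *Gpm6b* at 0.04 to 0.05, and *Csf1r* to *Mest*, *Rcl1* and *Ppm1m* at 0.01 to 0.03. Over only 4 arrays, this likeness is a description.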

How the data were processed

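Total RNA (27.7 ng per pool) was labelled with Cy3 and hybridized to 60-base Agilent arrays, 1 per group. The authors deposited the spot intensity of Feature Extraction 11.5.1.1, which is subtracted for background and not scaled between arrays, with calls of signal well above background, and a table that is the ratio of that intensity to the 75th percentile of the array, on a linear scale. Both were checked against each other. Here, control and outlier spots were left out (0 outliers among the genes described), log2 intensities of replicate spots averaged and the 75th percentile subtracted. The median SD between replicate spots was 0.057 to 0.064 on the log2 scale. Each gene was represented by its brightest probe. A probe well above background on 1 side only gave a limit, and on neither side no ratio. Over 2-fold was called, without a test. limma 3.58.1 in R 4.3.3 with Benjamini-Hochberg adjustment was the only model, and ratios and model were tested on simulated data. Python 3.11.15, pandas 2.3.3 and numpy 2.4.6 were used. RefSeq (GRCm38.p6) named 31388 probes of 22384 genes, and probe positions are mm9 per the file headers. The genes, lists and tests were chosen with earlier results of these data known. Genes of the lists were mostly named from among the 4 with the widest range over the arrays, and others, such as *Il4*, *Stat6*, *Il4ra*, *Tlr4*, *Cd38*, *Cx3cl1* and *Csf3r*, after their values were seen. Alternatives were no scaling, scaling by the median, quantile normalization, normexp with an offset of 50 and the deposited table. Others were the mean over a gene's probes, its dimmest probe, no filter on dim probes, and thresholds of 1.5-fold and 4-fold. The number of arrays limits the precision.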

Additional observations from a re-analysis of the deposited data

Results flagged for a closer look

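The ratio of *Pla2g3*-/- to *Pla2g3*+/+ for *Chil3* was past 2-fold upwards with vehicle (log2 ratio 1.30) and past it downwards after AOM (−3.94), a difference of −5.232, and this difference was not tested, since each group is 1 array. For *Retnla* the same ratio was past 2-fold downwards with vehicle (−1.10) and upwards after AOM (at least 9.21), a difference of at least 10.3078. For *Retnla* the AOM to vehicle ratio also went in opposite directions, −8.14 or lower in *Pla2g3*+/+ and 2.17 in *Pla2g3*-/-, which is the same difference of at least 10.3078 and was not tested either. Of these, the vehicle ratios of both genes were within 2-fold with normexp and quantile normalization (0.51 for *Chil3* and −0.94 for *Retnla*). In that setting the ratio of genotypes after AOM was −2.54 for *Chil3* and 6.02 for *Retnla*. The AOM to vehicle ratio of *Retnla* in *Pla2g3*+/+ was −4.72 there, so the limits above hold for the main setting only.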

How the results depend on the processing

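Of 288 log2 ratios of the 9 genes over the comparisons and alternatives, 276 kept their side of 2-fold, 7 fell within 2-fold and 5 went past it. Many of the 276 could not move, so this count overstates how far the ratios were put to the test. The deposited table has the same scaling as the main setting. Genes with 1 probe read the same under the mean and the dimmest probe. Dropping the filter on dim probes changed only the limits of *Retnla*. Of the called ratios 0 changed sign, though the *Csf1r* probe of opposite sign after AOM was not run on its own. Ratios within 2-fold could change sign. Unscaled, the AOM to vehicle ratio in *Pla2g3*-/- went from −0.61 to 0.24 for *Arg1* and from −0.27 to 0.58 for *Chil3*. It also turned positive for *Csf1r*, *Adgre1* and *Cd14*. No paired analysis was possible because each group is 1 array and the labels carry no replicate numbers, and for the same reason no array could be left out. With normexp and quantile normalization, 0 of the genes were past 2-fold in either direction with vehicle, and of all genes 111 were higher and 84 lower with vehicle (316 and 217 in the main setting), 1515 and 1300 in *Pla2g3*-/- over *Pla2g3*+/+ after AOM (2601 and 2219), 1684 lower after AOM in *Pla2g3*+/+ (3872), and 901 and 861 after AOM in *Pla2g3*-/- (1593 and 2496). Unscaled, 7752 genes were higher and 1232 lower after AOM in *Pla2g3*+/+, and 6399 and 626 in *Pla2g3*-/-. With the dimmest probe, 2 of the 9 genes were higher in *Pla2g3*-/- with vehicle and 1, *Adgre1*, was lower after AOM in *Pla2g3*-/-. Without the filter on dim probes, 2 genes, *Retnla* and *Cd163*, were higher in *Pla2g3*-/- after AOM, and 674 of all genes were higher and 711 lower with vehicle. At 1.5-fold, 5 of the 9 genes were higher in *Pla2g3*-/- with vehicle and 2 were lower after AOM in *Pla2g3*-/-. At 4-fold, 0 were higher and 0 lower with vehicle, 3 were lower in *Pla2g3*-/- after AOM, 4 were higher after AOM in *Pla2g3*+/+ and 1 in *Pla2g3*-/-. In the order vehicle, AOM, *Pla2g3*+/+ and *Pla2g3*-/-, all genes past 1.5-fold numbered 664, 4227, 4223 and 3413 higher and 570, 3698, 6105 and 4707 lower, and past 4-fold 121, 972, 862 and 229 higher and 60, 859, 1251 and 510 lower. The cause of the differences between settings was not tested. Dim spots limit *Arg1*, *Chil3* and *Msr1* outside the *Pla2g3*+/+ AOM array, where signals were a few times the lowest one well above background.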

Other observations

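Relatives of these genes did not follow them throughout. *Retnlb*, the resistin-like product of goblet cells, was at scaled signals of 181 and 167 with vehicle in *Pla2g3*+/+ and *Pla2g3*-/- and at 1.18 and 0.595 after AOM, so that it was lower after AOM by 154-fold in *Pla2g3*+/+ and by 281-fold in *Pla2g3*-/-, where *Retnla* was higher. *Retnlg*, the neutrophil member of that family, was at 0.0959 and 0.214 with vehicle and at 0.987 and 0.0203 after AOM, 48.7-fold lower in *Pla2g3*-/- than in *Pla2g3*+/+ after AOM. *Cd163l1*, a scavenger receptor related to *Cd163*, was well above background on all 4 arrays, with 0.0270 and 0.0397 with vehicle and 0.108 and 0.250 after AOM, and was highest on the *Pla2g3*-/- AOM array. Of 11 relatives with a ratio after AOM, 5 were over 2-fold lower in *Pla2g3*-/-, against 12.9% of all genes. Only 1, *Cd163l1*, was higher, against 15.1%.

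*Ltf*, lactoferrin, which neutrophils and glandular epithelium make, was higher in *Pla2g3*-/- than in *Pla2g3*+/+ after AOM, as was *Ly6g* (2.60 and 7.44), unlike *S100a8* and *S100a9*. *Ltf* was not well above background with vehicle in *Pla2g3*+/+, and was at 0.0320 with vehicle in *Pla2g3*-/-, 0.359 after AOM in *Pla2g3*+/+ and 9.83 after AOM in *Pla2g3*-/-, whereas *S100a9* was at 35.7 and 0.387 after AOM. These values come from 1 array each.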
